A study of Homo sapiens with 17 samples.

Results

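RNA from MDA-MB-231 cells after 24 h of TRAIL was compared with RNA after 6 h of TRAIL. MDA-MB-231 is an established human line of triple-negative breast cancer, that is, without oestrogen receptor, progesterone receptor or HER2 amplification, and the labels class it as mesenchymal, basal B. The comparison was defined by the time labels alone and comprises 6 libraries, 3 at 6 h and 3 at 24 h, of 17 in all. The other libraries were taken at 0, 1, 3 and 12 h, and the 3 at 0 h serve below as the starting level. All cells were grown in serum and carry the label of TRAIL treatment at 45 nM, those at 0 h included, a dose below the optimum that was chosen so that live cells would be measured. None of the libraries analysed here was labelled as untreated at 6 h or 24 h, so that effects of TRAIL and of hours in culture cannot be told apart. The labels do not say whether replicates came from separate cultures, and p-values therefore measure the spread between these libraries, which may be technical.

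TRAIL (TNFSF10) is a ligand of the TNF family. Its death receptors TNFRSF10A and TNFRSF10B can start apoptosis through caspases, and in cells that survive they can also activate NF-kB, a family of transcription factors that induces its own inhibitors, survival genes and cytokines. Interferon-stimulated genes are antiviral genes switched on when interferon receptors activate a complex, with STAT2 and IRF9 among its subunits, that binds the interferon-stimulated response element (ISRE). Both programmes contain inhibitors of themselves, so that levels at a middle and at a late time can differ. Per its title, the series concerns NFKB2, the cytokines it controls, chemotaxis of neutrophils and suppression of immunity.

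The line's labelled identity was checked first. VIM and CD44, mesenchymal and basal markers, averaged 2611 ± 169 and 1271 ± 5.51 CPM at 24 h (SD, n = 3), where CPM is the count divided by the scaled library total and expressed per 1e6. ESR1 and PGR, the hormone receptors, had at most 2 counts and 1 count in any library, while ERBB2, which encodes HER2, averaged 66.6 ± 3.79 CPM. The identity list of 18 markers also holds ZEB1, EGFR and the epithelial genes CDH1, EPCAM, KRT8 and KRT18. Its sum was 5579 to 5977 CPM at 24 h. Levels of the epithelial genes are not reported here, so the check of a mesenchymal identity is partial. Of 12 markers of immune, endothelial and fat cells, 9 did not pass the filter on low counts, having 5 or fewer in every library and 3 of them (CD3E, CSF3R, ADIPOQ) at 0 in all 17. The summed level of the 12 was 75.4 to 76.8 CPM at 6 h and 97.2 to 104 CPM at 24 h, almost all of it CD68, which rose (log2 fold change 0.38, adjusted p = 0.000113). Without CD68 the sum was 1.99 to 2.65 CPM at 6 h and 4.80 to 5.85 CPM at 24 h, and PECAM1, an adhesion molecule of endothelial cells, rose from 1.04 to 3.21 CPM (adjusted p = 0.000257). The part of these markers in the results below was not tested.

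Total counts ran from 15019649 to 18458203 at 6 h and from 14182576 to 16513524 at 24 h. Mitochondrial transcripts took 4.49 ± 0.830% of counts at 6 h and 3.90 ± 0.240% at 24 h, against 6.75 ± 1.46% at 0 h (SD, n = 3 each). At 6 h and 24 h, replicates 2 and 3 were closer to each other than any other pair of one time, 1 h not being examined. Their chi-square statistic per gene was 1.57 at 6 h and 1.67 at 24 h, against 3.68 to 13.5 for the other pairs. A value near 1 would be sampling noise alone, so they were kept as separate libraries. The slope of log2 level on transcript length was 0.018, 0.11 and 0.11 per doubling of length at 6 h and 0.0069, 0.15 and 0.13 at 24 h (replicates 1, 2 and 3), and -0.070, -0.020 and -0.032 at 0 h. Replicate 1 thus differed from replicates 2 and 3 alike at both times, and comparisons with 0 h carry a difference in this slope that 24 h against 6 h carries to a lesser extent.

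Of 15365 genes tested, 1696 (11.0%) rose and 1865 (12.1%) fell from 6 h to 24 h (edgeR quasi-likelihood test, adjusted p below 0.05), which is 23.2% in all. These shares are the background for every list count below at 24 h against 6 h. At 6 h against 0 h the background is 16.9% higher and 13.2% lower, and at 24 h against 0 h 18.0% and 17.1%. Most calls were modest in size, with a median absolute log2 fold change of 0.39, and 66.8% of the calls lay below 0.5. At least 2-fold differences were found for 189 higher genes (1.23%) and 104 lower genes (0.677%). The balance of directions depended on the scaling: 47.6% of the calls were higher with TMM, 61.5% (2148 higher, 1342 lower) with upper-quartile scaling and 67.8% (2411 higher, 1147 lower) with library size alone. With replicates 2 and 3 averaged at both times, 963 were higher and 948 lower, a setting in which 1911 of the original 3561 calls recurred.

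The fate of the 6 h response was followed through the same fit. At 6 h against 0 h, 63 genes (0.410% of those tested) had risen and 161 (1.05%) had fallen at least 2-fold. These 224 genes were sorted by their calls at 24 h, with 35.1% of all genes called at 24 h against 0 h. A response is faded if it was called back towards 0 h at 24 h against 6 h and no longer differed from 0 h by the test, partly faded if it was called back but still differed, persisting if it still differed from 0 h and was not called between 6 h and 24 h, grown if it was called further out, and reversed if it differed from 0 h in the other direction. The remainder is undecided. The comparisons share libraries, so the classes describe and do not test. Among the 63 genes higher at 6 h, 23 persisted, 1 (CXCL11) grew, 13 partly faded, 11 faded, 0 reversed and 15 were undecided. Among the 161 lower at 6 h, 28 persisted, 0 grew, 6 partly faded, 54 faded, 5 reversed and 68 were undecided. In all, 89 of 224 (39.7%) were called back towards 0 h. Of the 83 undecided genes, 82 had an average log2 CPM below 2, and of all 224, 183 did.

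**Figure D1:**
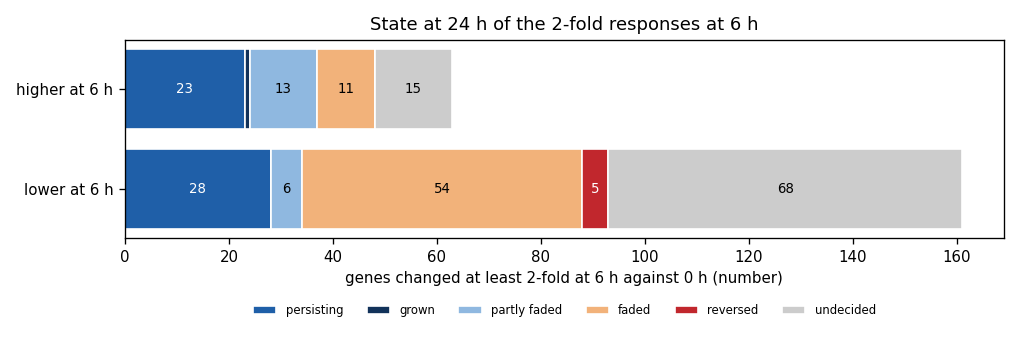
Number of genes changed at least 2-fold at 6 h against 0 h (horizontal axis), split by direction at 6 h (rows) and coloured by their state at 24 h. Persisting genes number 23 of the 63 that were higher and 28 of the 161 that were lower, and faded genes 11 and 54.

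The class counts moved with single libraries. Without the 6 h replicate 3, 146 genes changed 2-fold at 6 h, of which 30 persisted, 39 were undecided and 0 grew. Persisting genes numbered 32 when the 24 h replicate 2 was left out, 32 when the 24 h replicate 3 was, and 24 when the 0 h replicate 1 was. Reversed genes numbered 3 when any 1 of the 24 h replicates 2 and 3 and the 0 h replicates 1 and 2 was left out, and 2 without the 0 h replicate 3. Grown genes numbered 2 without the 0 h replicate 1 or 3 and 0 without the 0 h replicate 2. Taking every gene called at 6 h regardless of size (4627), 2046 persisted (44.2%), 1056 faded (22.8%), 120 partly faded, 131 grew, 210 reversed and 1064 were undecided. A further 91 genes were late, that is, not called at 6 h and changed at least 2-fold between 6 h and 24 h in the direction of a call against 0 h, 40 of them higher and 51 lower.

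**Figure D2:**
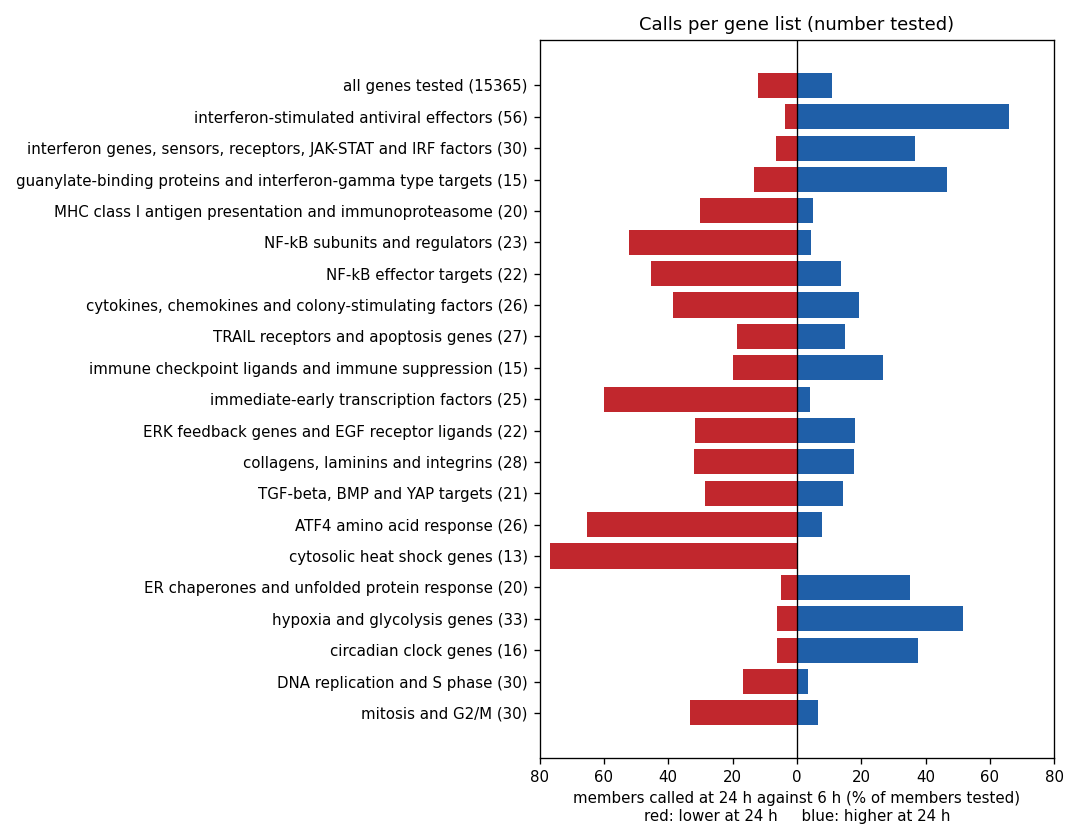
Share of 20 gene lists, and of all genes tested, called lower (left) and higher (right) at 24 h against 6 h, in percent of the members tested, whose number stands in brackets. Of the lists drawn, the effectors of the interferon response extend furthest to the right (37 of 56), and the immediate-early, ATF4 and heat shock lists extend furthest to the left (15 of 25, 17 of 26 and 10 of 13).

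Many interferon-stimulated effector genes were lower at 6 h than at 0 h, and most rose by 24 h. Of 56 antiviral and related effectors tested, 37 rose and 2 fell from 6 h to 24 h, with a median log2 fold change of 0.43 against -0.013 over all genes tested. At 6 h against 0 h, 7 were higher and 26 lower (median -0.26), where 16.9% of all genes were higher and 13.2% lower. At 24 h against 0 h, 29 were higher and 4 lower (median 0.35), where 18.0% of all genes were higher and 17.1% lower. Of the 26 that were lower at 6 h, 12 faded, 9 reversed, 4 persisted and 1 was undecided, and of the 7 that were higher at 6 h, 6 persisted and 1 grew. The libraries at 24 h and 6 h did not overlap for 41 effectors that were higher and 3 that were lower, against 18.4% and 20.3% of all genes.

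Most effectors for which a promoter sequence was at hand held the ISRE in it. The motif, GAAA followed by any 2 bases and GAAA again, searched on both strands in RefSeq promoter windows of 300 bases (250 before and 50 after each gene start, GRCh38.p14), was found for 31 of the 44 tested effectors with a window (70.5%) and in 1255 of 35116 windows of all genes (3.57%). An effector counted if any of its windows held the motif, whereas the share over all genes counts single windows, so the percentages are unlike measures. The motif was found for 19 of the 28 effectors that rose and for both that fell, so that its presence did not separate them. The 250 bases before the start are shown for IFIT1 (chr10:89392373-89392622, plus strand) and RSAD2 (chr2:6877527-6877776, plus strand), the called effectors with a match that changed most. Capitals mark the motif, which reads as TTTC, 2 bases and TTTC because it lies on the minus strand. It begins at -116 and -103 in IFIT1 and at -145 in RSAD2, counted from the RefSeq start. A match describes the letters and is not evidence of binding.
IFIT1: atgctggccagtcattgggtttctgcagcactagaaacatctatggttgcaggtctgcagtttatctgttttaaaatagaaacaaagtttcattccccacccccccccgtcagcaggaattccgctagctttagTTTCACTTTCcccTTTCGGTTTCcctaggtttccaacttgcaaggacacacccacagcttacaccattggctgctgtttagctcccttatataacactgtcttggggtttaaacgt
RSAD2: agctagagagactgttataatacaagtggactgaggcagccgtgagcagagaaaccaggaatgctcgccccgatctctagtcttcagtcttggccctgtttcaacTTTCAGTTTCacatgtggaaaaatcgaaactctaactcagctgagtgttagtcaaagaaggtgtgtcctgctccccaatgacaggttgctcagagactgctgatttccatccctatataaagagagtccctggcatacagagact

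IFIT1, IFIT2 and IFIT3 encode RNA-binding antiviral proteins from neighbouring genes on chromosome 10 (chr10:89392546-89406486, chr10:89283694-89309276 and chr10:89327894-89340971, GENCODE 29 on GRCh38). IFIT1 measured 28.4, 27.3 and 29.4 CPM at 6 h and 85.3, 78.8 and 75.7 CPM at 24 h, with 47.5 ± 3.18 CPM at 0 h (SD, n = 3). All 3 libraries at 6 h lay below 0 h and all 3 at 24 h above it, and the difference was 2.82-fold (log2 fold change 1.49, SE 0.0695, adjusted p = 1.7e-11). IFIT2 measured 37.7, 37.3 and 38.6 CPM at 6 h and 87.6, 90.1 and 87.4 CPM at 24 h (log2 fold change 1.22, SE 0.0659, adjusted p = 1.2e-10), and its counts were not whole in any of the 17 libraries, so that its reads were shared with another gene. IFIT3 measured 66.9, 72.8 and 70.3 CPM at 6 h and 159, 155 and 149 CPM at 24 h (log2 fold change 1.14, SE 0.0696, adjusted p = 9.1e-10). The groups did not overlap for any of them, and at 12 h their means were 54.0, 59.0 and 104 CPM, between the 6 h and 24 h values. An exact two-sided permutation test gave p = 0.1 for each, the smallest value that 3 against 3 libraries allow.

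Other effectors shared this course. OASL, an antiviral protein of the oligoadenylate synthetase family, measured 20.9, 19.3 and 17.9 CPM at 6 h and 43.6, 39.5 and 37.4 CPM at 24 h (log2 fold change 1.06, adjusted p = 4.0e-08). OAS2, which makes the signal that activates RNase L, rose from 18.8 ± 0.279 to 34.7 ± 1.04 CPM (0.89, adjusted p = 1.8e-07), and MX1, a GTPase that blocks influenza viruses, from 8.09 ± 0.327 to 14.4 ± 1.03 CPM (0.84, adjusted p = 5.7e-06). Each of these 3 had been lower at 6 h than at 0 h and was higher at 24 h than at 0 h. PARP9 and IFI44 followed the same pattern, with log2 fold changes of 0.93 and 0.87. SAMD9, HERC5, DDX60 and PARP14 rose by 0.89, 0.78, 0.70 and 0.49 without having been lower at 6 h by the test, and PARP14 was already higher than at 0 h (log2 fold change 0.30, adjusted p = 0.0116). ISG15, a ubiquitin-like modifier, rose from 62.2 ± 6.43 to 85.5 ± 6.52 CPM (0.46, adjusted p = 0.00833) and so regained its 0 h level of 84.1 ± 5.86 CPM, but was not called with replicates 2 and 3 averaged (adjusted p = 0.0606). IFI16, a DNA sensor, also returned to its 0 h level (0.45 between 6 h and 24 h).

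Several effectors had few counts. RSAD2 (viperin) had 9 counts in its lowest library and measured 1.14, 1.72 and 0.971 CPM at 6 h and 3.04, 2.11 and 3.67 CPM at 24 h (log2 fold change 1.21, SE 0.307, adjusted p = 0.00679). APOBEC3G, IFI44L and OAS1 rose by 1.48, 1.15 and 1.07 on the log2 scale from under 2 CPM, and IFI44L and OAS1 were not called under every alternative. Their standard errors of 0.35, 0.31 and 0.30 are several times that of IFIT1. The effectors that fell were DDX60L, from 45.5 ± 3.22 to 37.3 ± 4.12 CPM (-0.29, adjusted p = 0.0136), and PARP12, from 68.8 ± 2.14 to 61.6 ± 1.80 CPM (-0.16, adjusted p = 0.0390). PARP12 was not called with the replicate number as a block (adjusted p = 0.0528), and the number of lower effectors, 2, was then 1. That number was 1 without the 6 h replicate 1 or 2 or the 24 h replicate 1 or 3, and 0 without the 6 h replicate 3. ADAR, an RNA-editing enzyme, measured 173 ± 15.9 CPM at 6 h and 186 ± 20.3 CPM at 24 h and kept its call against 0 h at both times.

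**Figure D3:**
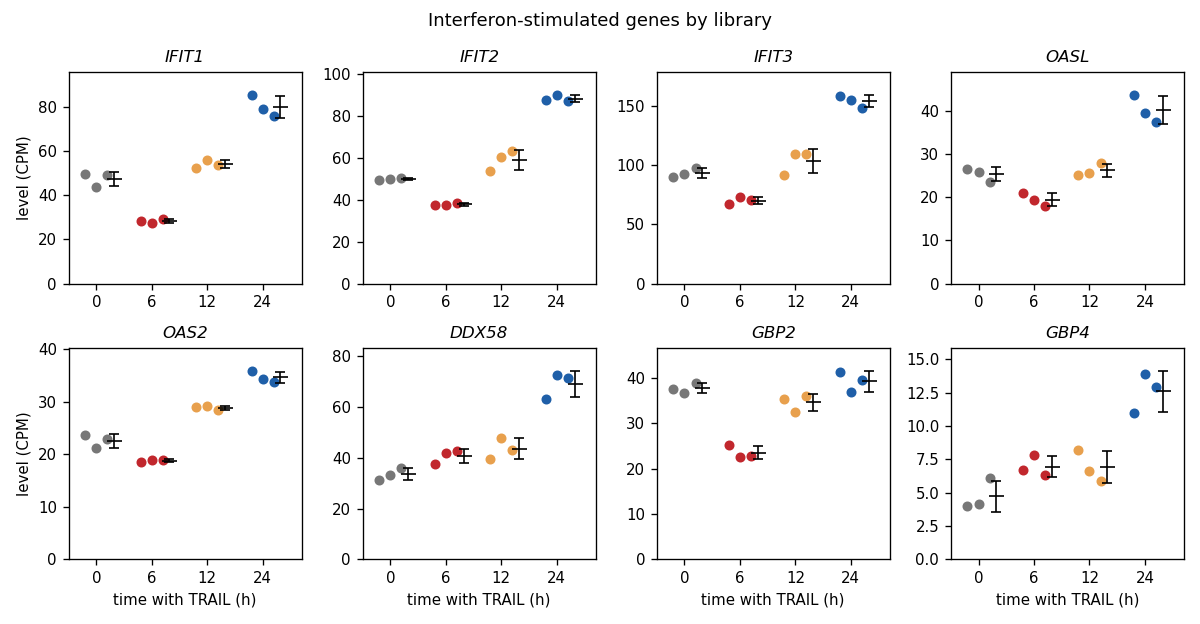
Level of 8 interferon-stimulated genes (CPM, from 0) in each of the 3 libraries at 0, 6, 12 and 24 h (points), with mean and SD (black). For IFIT1, IFIT2, IFIT3, OASL, OAS2 and GBP2 the 6 h points are the lowest, and for DDX58 and GBP4 the 24 h points lie above all others.

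Among sensors and signalling genes, more rose than fell. Of 30 tested, 11 rose and 2 fell from 6 h to 24 h (median 0.14), where 11.0% of all genes rose and 12.1% fell. The number that fell was 1 with replicates 2 and 3 averaged. At 6 h, 10 had risen and 5 had fallen from their 0 h level, where 16.9% and 13.2% of all genes had. The RNA sensors rose. DDX58, which encodes RIG-I, measured 37.3, 41.7 and 42.6 CPM at 6 h and 63.1, 72.3 and 71.3 CPM at 24 h (log2 fold change 0.76, adjusted p = 2.2e-06), and was already above its 0 h level of 33.5 ± 2.32 CPM at 6 h. IFIH1 (MDA5), DHX58 (LGP2) and TLR3 rose by 0.58, 0.57 and 1.05. Of the DNA-sensing pathway, TMEM173, which encodes STING, rose from 18.4 ± 1.23 to 27.5 ± 1.35 CPM (0.58, adjusted p = 4.4e-05), whereas CGAS, the enzyme upstream of it, fell from 68.5 ± 0.239 to 52.8 ± 0.387 CPM (-0.38, adjusted p = 0.000618) after having been higher at 6 h than at 0 h.

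The transcription factors IRF1, IRF9 and STAT2 rose. IRF1 measured 55.7, 56.3 and 54.3 CPM at 6 h and 78.9, 67.5 and 70.7 CPM at 24 h (log2 fold change 0.38, adjusted p = 0.000292). IRF9 rose by 0.47 and STAT2 by 0.32. SOCS3, a feedback inhibitor of JAK-STAT signalling, rose from 21.0 ± 1.73 to 33.0 ± 1.31 CPM (0.66, adjusted p = 5.6e-06), back to its 0 h level of 32.2 ± 0.794 CPM. Of the receptor chains for interferon gamma, IFNGR1 rose (0.25, adjusted p = 0.0363) and IFNGR2 fell (-0.22, adjusted p = 0.0130), both of which were lost under some alternatives. The interferon genes IFNB1, IFNL1, IFNL2, IFNL3, IFNE and IFNG had at most 4 counts in any of the 17 libraries and were not tested, so a change in them was not detectable at this depth. IRF1 and IRF9 had counts that were not whole in any library.

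Of 15 guanylate-binding proteins and other targets of interferon gamma, 7 rose and 2 fell from 6 h to 24 h (median 0.45), and the remaining 6 did not pass the test. GBP2, a GTPase of cell-intrinsic immunity, measured 25.2, 22.5 and 22.8 CPM at 6 h and 41.3, 36.7 and 39.5 CPM at 24 h (log2 fold change 0.74, adjusted p = 4.0e-06), a return to the 37.7 ± 1.08 CPM of 0 h. GBP4 rose above 0 h at both times, from 4.75 ± 1.17 CPM at 0 h through 6.96 ± 0.766 CPM at 6 h to 12.6 ± 1.52 CPM at 24 h (0.86 between 6 h and 24 h, adjusted p = 0.000380). CXCL11, a chemokine for T cells with 5 counts in its lowest library, was the 1 gene of the 2-fold 6 h responses that grew (0.879 ± 0.191 to 1.80 ± 0.174 CPM, adjusted p = 0.00853).

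CIITA, the master regulator of MHC class II genes, rose from 8.88 ± 0.949 to 17.2 ± 0.981 CPM (0.96, adjusted p = 6.7e-07), while CD74 and HLA-DRA, known targets of it, fell. The call of CD74 (-0.28, adjusted p = 0.0117) was lost with replicates 2 and 3 averaged and when any 1 of the 6 h replicate 1 and the 24 h replicates 2 and 3 was left out (highest adjusted p = 0.0821). HLA-DRA measured 64.6, 53.1 and 54.9 CPM at 6 h and 44.1, 37.5 and 39.4 CPM at 24 h (-0.51, adjusted p = 0.000119). Of 20 genes of MHC class I presentation, 6 were lower, 1 was higher and 13 did not pass the test (median -0.018). Over all genes tested, 12.1% were lower and 11.0% higher. Among those that fell, HLA-B, HLA-C, HLA-E and HLA-F, which encode class I heavy chains, did so by 0.44, 0.28, 0.17 and 0.41 on the log2 scale, and the peptide transporter TAP2 fell by 0.27. The member that rose was CALR, a chaperone of the endoplasmic reticulum that loads class I molecules (0.35, adjusted p = 0.000287). The class I heavy chain genes named, CD74, TAP2 and CIITA shared reads with other genes, with counts that were not whole in 16 or 17 libraries, whereas those of HLA-DRA were whole in all. The call of HLA-E was lost under some alternatives.

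About as many NF-kB pathway genes fell as did not, from a high 6 h level, and most stayed above 0 h. Of 23 subunits, inhibitors and adaptors, 20 rose and 0 fell from 0 h to 6 h (median 0.67), and 15 were still higher and 0 lower at 24 h (median 0.59). Between 6 h and 24 h, 12 fell and 1 rose (median -0.25), where 12.1% of all genes fell and 11.0% rose. Of the 20 that were higher at 6 h, 8 partly faded, 6 persisted, 4 faded, 1 grew and 1 was undecided. The number that rose was 3 with upper-quartile scaling or a length and GC correction and 4 with library size alone.

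NFKB2, the precursor of the p52 subunit of the non-canonical pathway, measured 165, 157 and 155 CPM at 6 h and 124, 124 and 120 CPM at 24 h, against 80.3 ± 2.21 CPM at 0 h. The 24 h libraries lay below all 6 h libraries and above all 0 h libraries (log2 fold change -0.37 against 6 h, SE 0.0659, adjusted p = 0.000350; 0.61 against 0 h, adjusted p = 3.8e-06). The exact permutation test of 24 h against 6 h gave p = 0.1, again the smallest possible. RELB, its partner subunit, measured 48.1, 49.4 and 48.0 CPM at 6 h and 36.8, 32.2 and 32.2 CPM at 24 h (-0.52, adjusted p = 8.4e-05). NFKB1 and RELA, subunits of the canonical pathway, fell by 0.43 and 0.23, and RELA no longer differed from 0 h by the test (adjusted p = 0.105). RELA and TNFAIP3 lost their calls under some alternatives.

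Survival genes and inhibitors of the pathway differed in how far they fell. BIRC3, which encodes cIAP2, measured 162, 207 and 193 CPM at 6 h and 161, 189 and 177 CPM at 24 h, against 42.5 ± 3.50 CPM at 0 h (log2 fold changes 2.14 and 2.04). Its libraries at 6 h and 24 h overlapped, with no call between them (-0.093, SE 0.0875, adjusted p = 0.492). TRAF1, an adaptor of TNF receptors, partly faded: it measured 70.7, 78.0 and 72.1 CPM at 6 h and 49.3, 53.4 and 48.3 CPM at 24 h (-0.55, adjusted p = 8.5e-06), from 16.6 ± 1.63 CPM at 0 h. BIRC2 fell by 0.42. Of the inhibitors, TNFAIP3 (A20) and NFKBIE fell by 0.32 and 0.38, NFKBIA measured 70.4 ± 4.48 and 76.4 ± 3.95 CPM without a call, and BCL3, a nuclear co-factor of p50 and p52, rose from 18.6 ± 0.773 to 25.2 ± 0.553 CPM (0.44, adjusted p = 0.00477). ICAM1, IRAK2 and POU2F2 were among the persisting responses, with ICAM1 at 38.4 ± 3.59, 88.7 ± 3.38 and 94.5 ± 3.82 CPM at 0, 6 and 24 h. The 24 h libraries of IRAK2 and of POU2F2 nevertheless lay below all their 6 h libraries. IRAK2 was called lower with the length and GC correction.

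The path between the 2 times was not straight. Mean levels at 0, 6, 12 and 24 h were 80.3, 159, 101 and 123 CPM for NFKB2, 19.9, 48.5, 25.6 and 33.7 CPM for RELB, 16.6, 73.6, 29.2 and 50.3 CPM for TRAF1 and 42.5, 187, 106 and 175 CPM for BIRC3. For each of these 4 genes the 12 h mean lay below the 24 h mean. No contrast with 12 h was fitted, so this is a description of means.

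**Figure D4:**
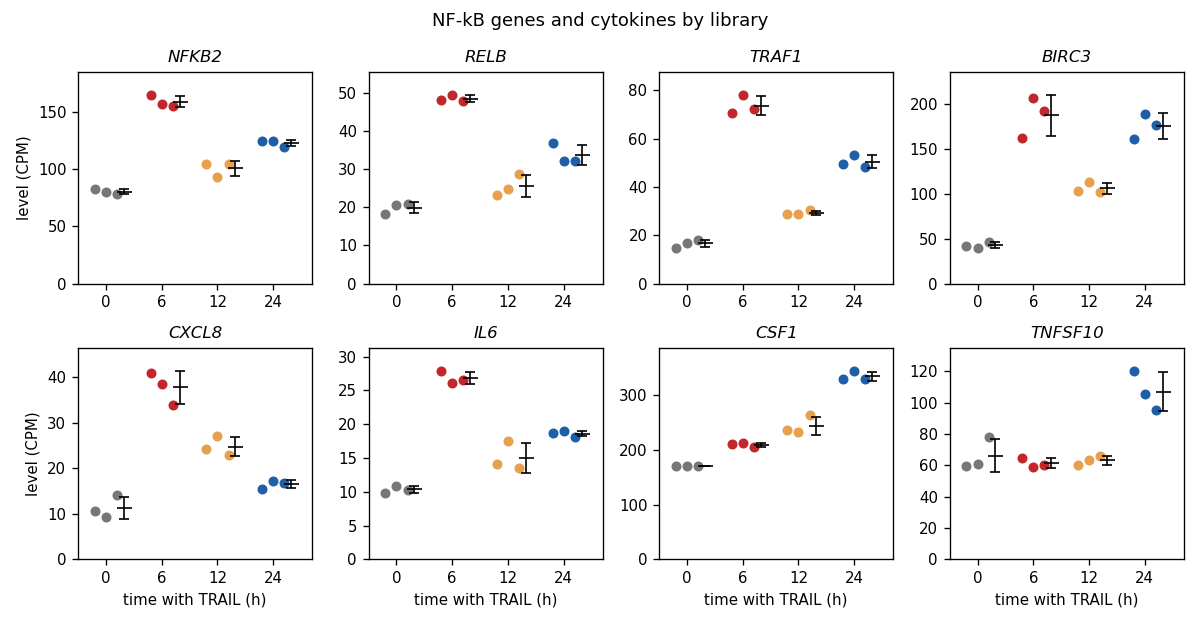
Level of 4 NF-kB genes and 4 cytokines (CPM, from 0) in each of the 3 libraries at 0, 6, 12 and 24 h (points), with mean and SD (black). NFKB2, RELB, TRAF1 and BIRC3 are lower at 12 h than at 6 h or 24 h, CXCL8 falls from 6 h on, and CSF1 is highest at 24 h.

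Target genes of NF-kB also fell more often than they rose. Of 22 effectors, 10 fell and 3 rose between 6 h and 24 h (median -0.17), where 12.1% of all genes fell and 11.0% rose. Of the 22, 13 had been higher at 6 h than at 0 h, where 16.9% of all genes were. Promoters are shown for the called members that held a kappaB motif (GGG, any 3 bases and TTCC, both strands) and changed most, ELF3 (chr1:202010337-202010586, plus strand) and CD83 (chr6:14117522-14117771, plus strand). ELF3, an epithelial transcription factor, rose from 1.83, 1.39 and 2.05 CPM to 5.39, 5.83 and 4.14 CPM (log2 fold change 1.53, adjusted p = 1.8e-05). CD83, a membrane protein of activated immune cells, fell from 27.3, 27.4 and 26.5 CPM to 18.7, 17.3 and 15.5 CPM (-0.65, adjusted p = 1.0e-05), back to its 0 h level of 15.4 ± 0.846 CPM. The motif was found for 3 of 14 effectors and for 11 of 20 pathway genes with a window (55.0%), against 2289 of the 35116 windows (6.52%). Here too a gene counted by any of its windows and the background by single windows. In capitals, it reads GGAA, 3 bases and CCC where it lies on the minus strand, and in CD83 a match on each strand overlaps in 1 stretch.
ELF3: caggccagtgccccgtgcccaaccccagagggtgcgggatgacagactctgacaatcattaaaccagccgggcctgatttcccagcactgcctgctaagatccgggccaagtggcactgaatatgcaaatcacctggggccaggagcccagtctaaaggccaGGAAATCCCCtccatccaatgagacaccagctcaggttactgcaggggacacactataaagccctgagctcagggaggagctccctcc
CD83: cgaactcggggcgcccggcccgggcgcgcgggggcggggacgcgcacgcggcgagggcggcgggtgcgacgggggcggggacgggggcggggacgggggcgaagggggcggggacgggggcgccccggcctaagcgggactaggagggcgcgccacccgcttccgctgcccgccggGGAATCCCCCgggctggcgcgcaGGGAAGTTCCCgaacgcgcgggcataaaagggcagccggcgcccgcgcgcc

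VCAM1, a leukocyte adhesion molecule, rose from 1.26, 0.796 and 1.40 CPM to 5.15, 5.52 and 5.60 CPM (log2 fold change 2.21, SE 0.256, adjusted p = 3.6e-06), having been at 1.33 ± 0.344 CPM at 0 h. It changed 4.62-fold, with 9 counts in its lowest library. SERPINB2, an inhibitor of plasminogen activators, fell from 6.75 ± 0.501 to 2.88 ± 0.241 CPM (-1.22), and PLAU, the activator urokinase, from 612 ± 23.2 to 448 ± 17.7 CPM (-0.45). Both had been higher at 6 h than at 0 h and did not differ from 0 h by the test at 24 h.

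Cytokine and chemokine genes split between fading, persisting and growing members, and others changed after 6 h without a call at 6 h. Of 26 tested, 15 rose and 0 fell from 0 h to 6 h (median 0.86), and 12 were higher and 1 lower at 24 h (median 0.71). Between 6 h and 24 h, 10 fell and 5 rose (median -0.032), where 12.1% of all genes fell and 11.0% rose. Of the 15 that were higher at 6 h, 5 faded, 4 partly faded, 4 persisted and 2 grew.

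CXCL8, CXCL2, CXCL3 and CXCL1, chemokines that attract neutrophils, fell. CXCL8 measured 40.9, 38.4 and 33.8 CPM at 6 h and 15.5, 17.1 and 16.8 CPM at 24 h, against 11.3 ± 2.46 CPM at 0 h (log2 fold change -1.19, SE 0.111, adjusted p = 2.4e-07). It partly faded, since it was still above 0 h by the test (0.54, adjusted p = 0.00277). CXCL2 fell from 10.2, 9.09 and 9.55 CPM to 4.39, 4.52 and 4.14 CPM (-1.14, adjusted p = 1.1e-05) and CXCL3 from 4.16 ± 0.612 to 1.43 ± 0.0823 CPM (-1.53, adjusted p = 0.000388), and neither differed from 0 h by the test at 24 h. CXCL1 fell from 5.74 ± 0.317 to 3.54 ± 0.684 CPM (-0.69, adjusted p = 0.00464), remained above its 0 h level of 1.35 ± 0.235 CPM, and was not called between 6 h and 24 h with replicates 2 and 3 averaged. CSF2, which encodes GM-CSF, fell from 23.5 ± 1.83 to 14.8 ± 3.17 CPM (-0.65, adjusted p = 0.000587).

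Cytokines of the IL-6 family went different ways. IL6 measured 27.9, 26.1 and 26.5 CPM at 6 h and 18.7, 19.0 and 18.1 CPM at 24 h (log2 fold change -0.53, adjusted p = 0.000457), still above the 10.4 ± 0.536 CPM of 0 h. LIF fell from 77.1 ± 2.29 to 47.2 ± 0.281 CPM (-0.71, adjusted p = 2.5e-07) and did not differ from 0 h by the test. IL11 persisted, at 30.1 ± 0.890 and 33.4 ± 0.385 CPM from 15.1 ± 1.19 CPM at 0 h, with no call between the 2 times (adjusted p = 0.166). IL32, a cytokine that had not changed by 6 h, fell by 0.36.

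Other cytokines rose. CSF1, the growth factor of macrophages, measured 209, 213 and 205 CPM at 6 h and 329, 343 and 328 CPM at 24 h (log2 fold change 0.67, SE 0.0532, adjusted p = 3.2e-08), and it had been at 170 ± 0.512 CPM at 0 h. TNFSF15, a TNF family member, grew from 3.85 ± 0.171 to 6.80 ± 0.0478 CPM (0.82, adjusted p = 0.000858). TNFSF10, the gene of TRAIL itself and also interferon-stimulated, measured 65.0, 58.8 and 60.4 CPM at 6 h and 120, 106 and 95.1 CPM at 24 h (0.80, adjusted p = 4.1e-05). It had not differed from 0 h at 6 h by the test (66.3 ± 10.3 CPM). CX3CL1 and IL18 rose by 0.98 and 0.36, and the call of IL18 was lost under some alternatives.

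Prostaglandin enzymes moved in opposite directions. PTGS2 (COX-2), which makes the prostaglandin precursor, fell from 5.56, 5.84 and 6.21 CPM to 1.87, 2.42 and 3.00 CPM (log2 fold change -1.28, adjusted p = 0.00141), near its 0 h level of 2.10 ± 0.253 CPM. PTGES, which converts the product to prostaglandin E2, rose from 23.3, 22.0 and 17.7 CPM to 62.0, 55.6 and 56.4 CPM (1.47, SE 0.0889, adjusted p = 8.3e-10). PTGES had been lower at 6 h than at 0 h and was higher at 24 h than at 0 h.

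Among genes of immune suppression, 4 of 15 rose and 3 fell, where 11.0% of all genes rose and 12.1% fell. CD274 (PD-L1), the ligand of the checkpoint receptor PD-1, measured 44.9, 47.0 and 50.2 CPM at 6 h and 29.7, 32.3 and 37.2 CPM at 24 h (log2 fold change -0.52, adjusted p = 0.000104), against 28.5 ± 2.53 CPM at 0 h. PDCD1LG2 (PD-L2) fell by 0.58 (adjusted p = 0.0111), a call lost under some alternatives. VSIR, which encodes the checkpoint protein VISTA, rose from 5.50 ± 0.705 to 10.8 ± 0.170 CPM (0.98, adjusted p = 1.3e-05), ARG2 (arginase 2) from 2.43 ± 0.289 to 5.76 ± 0.334 CPM (1.23) and CD47, a signal against phagocytosis, from 99.1 ± 0.767 to 119 ± 1.36 CPM (0.26).

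Most genes of TRAIL signalling and apoptosis did not pass the test. Of 27, 4 rose and 5 fell between 6 h and 24 h (median -0.0093), where 11.0% of all genes rose and 12.1% fell. At 6 h, 13 had been higher than at 0 h, where 16.9% of all genes were. The number that fell was 2 with replicates 2 and 3 averaged or library size alone and 3 when any 1 of the 6 h replicates 2 and 3 and the 24 h replicate 1 was left out. The number that rose was 2 without the 6 h replicate 1 or the 24 h replicate 2 and 7 with library size alone. The death receptors TNFRSF10A and TNFRSF10B measured 35.0 ± 2.08 and 161 ± 4.95 CPM at 6 h and 31.8 ± 1.66 and 170 ± 3.89 CPM at 24 h, with no call between these times and a call above 0 h at each. Of the decoy receptors, TNFRSF10D rose (0.32, adjusted p = 0.00468) and TNFRSF11B, which encodes osteoprotegerin, fell (-0.74, adjusted p = 0.00245). MCL1, an anti-apoptotic BCL2 relative, fell from 412 ± 11.3 to 308 ± 6.48 CPM (-0.42, adjusted p = 6.1e-06), back to its 0 h level of 296 ± 1.90 CPM. CFLAR, the caspase 8 inhibitor FLIP, and BCL2 fell by 0.18 and 0.42, both lost under some alternatives, and CASP9, the initiator of the mitochondrial pathway, rose by 0.65.

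Of 25 immediate-early genes, the transcription factors induced first by growth and stress signals, 15 fell and 1 rose between 6 h and 24 h (median -0.39). At 6 h against 0 h, 14 had been higher and 0 lower (median 0.34), and at 24 h against 0 h 5 were higher and 10 lower (median -0.21). Of the 14, 5 reversed, 4 faded, 1 partly faded, 3 persisted and 1 grew.

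FOSB had the largest fall of the genes named by rule. It measured 12.1, 8.36 and 10.3 CPM at 6 h and 1.87, 2.42 and 2.00 CPM at 24 h, against 6.87 ± 1.53 CPM at 0 h (log2 fold change -2.29, SE 0.214, adjusted p = 2.8e-07). EGR1 measured 57.4, 48.6 and 43.5 CPM at 6 h and 20.7, 15.2 and 15.2 CPM at 24 h (-1.54, SE 0.145, adjusted p = 8.9e-07), and was higher than 0 h at 6 h and lower at 24 h. FOS fell from 43.1 ± 7.44 to 21.2 ± 2.00 CPM (-1.02), having been at 44.0 ± 7.55 CPM at 0 h. ATF3 fell by 0.84, KLF10 and KLF6 by 0.74 and 0.64, FOSL1 by 0.63 and JUNB by 0.37, the last lost under some alternatives. FOSL2, another FOS family member, was the member that rose, from 171 ± 10.8 to 215 ± 19.9 CPM (0.32, adjusted p = 0.00373), and it grew further from its 118 ± 5.46 CPM at 0 h.

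The phosphatases and Sprouty proteins that limit ERK signalling were divided. Of 22 feedback genes, 7 fell and 4 rose (median 0.059), and 7 rose with upper-quartile scaling or library size alone. DUSP1, a MAP kinase phosphatase, measured 62.2, 57.1 and 59.4 CPM at 6 h and 24.8, 24.7 and 26.1 CPM at 24 h (log2 fold change -1.24, SE 0.0663, adjusted p = 1.1e-10), below the 36.1 ± 0.232 CPM of 0 h. DUSP10, DUSP2 and DUSP8 fell by 0.51, 1.50 and 1.34, the last 2 from under 3 CPM. SPRY4 fell from 99.5 ± 3.41 to 78.2 ± 5.27 CPM (-0.35), whereas SPRY1 rose from 7.08, 7.50 and 7.23 CPM to 18.3, 20.2 and 18.5 CPM (1.39, adjusted p = 7.5e-09). SPRY1 was one of the reversed 2-fold responses, with 15.0 ± 1.03 CPM at 0 h.

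Some of the largest falls were in genes of the matrix and of TGF-beta signalling. PMEPA1, an inhibitor of TGF-beta signalling that is itself a target, measured 189, 192 and 195 CPM at 6 h and 57.3, 51.5 and 53.4 CPM at 24 h, against 122 ± 0.412 CPM at 0 h (log2 fold change -1.83, SE 0.0535, adjusted p = 6.3e-15). FN1 (fibronectin) fell from 1587 ± 153 to 684 ± 55.4 CPM (-1.21, adjusted p = 9.1e-07). Both were higher at 6 h than at 0 h and lower at 24 h than at 0 h.

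Of 28 matrix and adhesion genes, 9 fell and 5 rose (median -0.065), and 15 had been higher at 6 h, of which 5 reversed and 7 persisted. The collagens COL1A1 and COL4A1 fell by 1.06 and 0.94 and thrombospondin THBS1, with counts that were not whole in any library, by 0.56. The members that rose were laminin and integrin genes and a membrane collagen: LAMA5, ITGB4, COL13A1, ITGA5 and LAMA3, by 0.43, 0.40, 0.33, 0.26 and 0.23, the last of which was lost under some alternatives. Of 21 genes of TGF-beta and YAP signalling, 6 fell and 3 rose (median -0.043), where 12.1% of all genes fell and 11.0% rose. TGFBI, SKIL and SMAD7, known targets of TGF-beta, fell by 0.92, 0.82 and 0.71, while SMAD6, an inhibitor of BMP signalling, rose by 0.64, a call lost with replicates 2 and 3 averaged, when 1 member rose. TIMP3, an inhibitor of matrix proteases, rose from 311 ± 8.33 to 533 ± 1.85 CPM (0.78, adjusted p = 4.4e-09). The identity markers VIM, CD44 and SNAI2 fell by 0.30, 0.27 and 0.39, with 0 of the 13 tested rising. With upper-quartile scaling, library size alone, the length and GC correction or without the 24 h replicate 3, 1 rose.

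**Figure D5:**
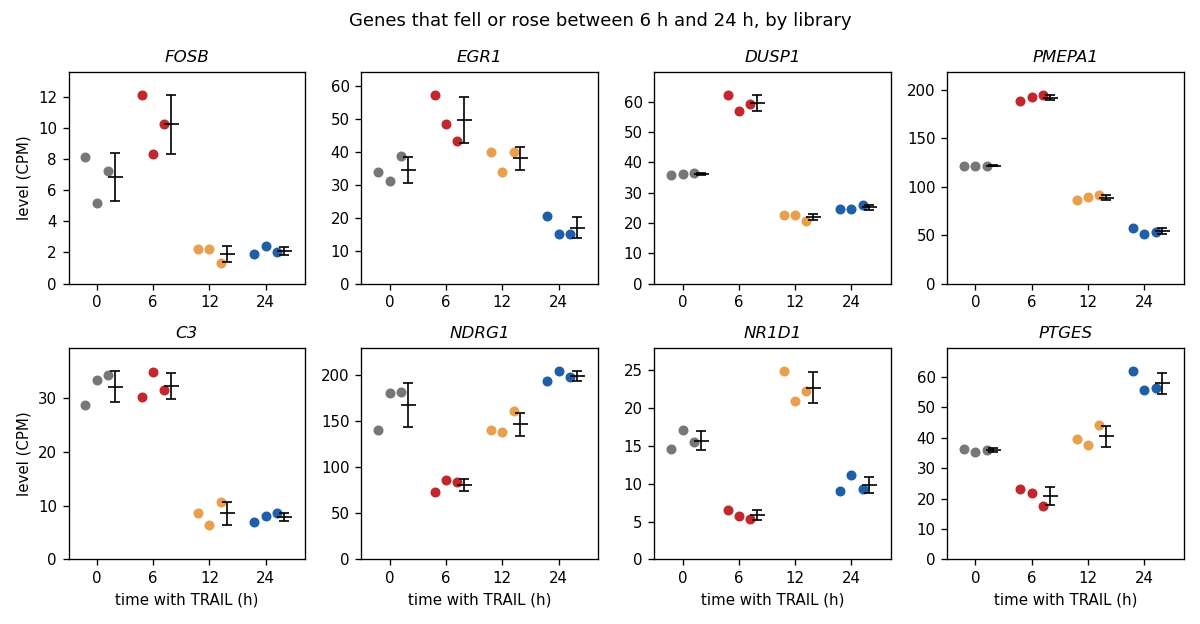
Level of 8 genes that fell or rose between 6 h and 24 h (CPM, from 0) in each of the 3 libraries at 0, 6, 12 and 24 h (points), with mean and SD (black). C3 is level from 0 h to 6 h and low from 12 h on, NDRG1 and PTGES are lowest at 6 h, and NR1D1 peaks at 12 h.

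Complement genes were among the late responses, and the late genes described here have an average log2 CPM of at least 2. C3, the central protein of the complement cascade, measured 30.1, 34.8 and 31.5 CPM at 6 h and 7.03, 7.99 and 8.54 CPM at 24 h (log2 fold change -2.03, SE 0.132, adjusted p = 2.8e-09), while its 0 h level was 32.1 ± 2.90 CPM. It had not differed from 0 h by the test at 6 h (log2 fold change 0.0028, adjusted p = 0.989) and was at 8.57 ± 2.15 CPM by 12 h. C4A and C4B, near-identical copies whose reads could not be told apart with certainty, fell by 1.41 and 1.53. AMH, a hormone of the TGF-beta superfamily, fell from 13.4 ± 2.42 to 4.81 ± 0.542 CPM (-1.48, adjusted p = 1.0e-05), and AQP3, a water and glycerol channel, rose from 2.79 ± 0.856 to 6.85 ± 0.594 CPM (1.28, adjusted p = 0.000259).

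Of the remaining genes with the largest falls, TFF1, a secreted trefoil peptide, was lower at 6 h than at 0 h and fell further. It was at 14.2 ± 0.393 CPM at 0 h and at 8.21, 8.09 and 7.07 CPM at 6 h. At 24 h it was at 1.99, 1.49 and 1.60 CPM (log2 fold change against 6 h -2.19, SE 0.156, adjusted p = 8.3e-09). Its level was already 2.06 ± 0.232 CPM at 12 h. CYP1A1, an oxidase induced through the aryl hydrocarbon receptor, fell from 16.5 ± 1.46 to 6.84 ± 0.951 CPM (-1.27), below the 8.53 ± 0.468 CPM of 0 h. AC245041.1 and the pseudogene HNRNPA1P33 fell by 1.27 and 1.26, and the counts of the pseudogene were not whole in any library.

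Most genes of the ATF4 pathway, many of them in amino acid supply, fell. Of 26 members, 17 fell and 2 rose between 6 h and 24 h (median -0.34), and 16 were lower and 1 higher at 24 h than at 0 h. With replicates 2 and 3 averaged, 11 fell. At 6 h against 0 h, 4 had been higher, of which 2 reversed and 2 faded, and 8 were already lower, of which 5 grew, 2 persisted and 1 was undecided. ATF4, the transcription factor of the integrated stress response, measured 359, 321 and 327 CPM at 6 h and 253, 220 and 214 CPM at 24 h (log2 fold change -0.55, adjusted p = 1.3e-05), after 341 ± 22.5 CPM at 0 h. SLC7A5 and SLC3A2, which together form an amino acid transporter, fell by 0.74 and 0.75 after having been higher at 6 h than at 0 h, and the counts of SLC7A5 and ASNS were not whole in any library. ASNS, which makes asparagine, fell by 0.45 and CHAC1, which degrades glutathione, by 0.97. CHAC1 was already lower at 6 h than at 0 h (log2 fold change -0.48, adjusted p = 0.0173). DDIT4, an inhibitor of mTOR signalling that hypoxia also induces, rose from 84.7 ± 3.67 to 124 ± 3.72 CPM (0.55, adjusted p = 7.7e-06).

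Most heat shock genes fell back. Of 13 heat shock genes, 9 were higher at 6 h than at 0 h, and 10 fell and 0 rose between 6 h and 24 h (median -0.27). HSPA1B (HSP70) measured 371, 373 and 385 CPM at 6 h and 241, 226 and 223 CPM at 24 h (log2 fold change -0.71, adjusted p = 2.9e-07), against 184 ± 1.97 CPM at 0 h. It shares reads with its copy HSPA1A, which fell by 0.52. HSPA8, the constitutive HSP70, measured 2529, 3220 and 3258 CPM at 6 h and 2219, 2191 and 2214 CPM at 24 h, and fell by 0.44 (adjusted p = 0.0226), a call lost under some alternatives. Of 20 genes of the unfolded protein response, 7 rose, 1 fell and 12 did not pass the test (median 0.12). Over all genes tested, 11.0% rose and 12.1% fell. HSPA5 (BiP) rose from 983 ± 24.6 to 1295 ± 72.0 CPM (0.40, adjusted p = 3.6e-05) and HSP90B1 by 0.36. The member that fell was the stress sensor ERN1 (-0.42), a call lost with replicates 2 and 3 averaged and without the 6 h replicate 2.

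Hypoxia and glycolysis genes included many that were low at 6 h and rose by 24 h. Of 33, 16 were lower and 2 higher at 6 h than at 0 h (median -0.15), and 17 rose and 2 fell between 6 h and 24 h (median 0.18). With replicates 2 and 3 averaged, 11 rose and 0 fell. Of the 16, 8 faded, 3 persisted, 2 grew, 1 reversed and 2 were undecided. NDRG1, a target of HIF1, measured 73.7, 86.3 and 83.6 CPM at 6 h and 194, 205 and 197 CPM at 24 h (log2 fold change 1.29, SE 0.0988, adjusted p = 4.3e-08), against 168 ± 23.9 CPM at 0 h. EGLN3, an oxygen sensor that marks HIF for degradation, rose from 9.09 ± 0.944 to 20.2 ± 0.731 CPM (1.15), and MIR210HG, the host transcript of a hypoxia-induced microRNA, from 5.32 ± 0.376 to 11.5 ± 1.17 CPM (1.11). BNIP3, PFKFB4, PDK1 and LDHA rose by 0.59, 0.88, 0.49 and 0.33, all with counts that were not whole in 15 or 17 libraries. CA9 and ADM, also targets of HIF1, fell further, by 0.37 and 0.28, both lost under some alternatives.

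Several clock output genes rose from a low at 6 h. Of 16 clock genes, 8 were lower and 6 higher at 6 h than at 0 h (median -0.53), where 13.2% and 16.9% of all genes were. Between 6 h and 24 h, 6 rose and 1 fell (median 0.22), where 11.0% of all genes rose and 12.1% fell. TEF, DBP and NR1D1 are rhythmic genes driven by the CLOCK complex. TEF measured 4.23, 4.44 and 4.42 CPM at 6 h and 7.96, 7.13 and 7.94 CPM at 24 h (log2 fold change 0.81, adjusted p = 5.0e-05), short of its 0 h level of 12.5 ± 0.690 CPM. DBP rose from 1.63 ± 0.236 to 3.79 ± 0.398 CPM (1.22) and NR1D1 from 5.90 ± 0.624 to 9.84 ± 1.10 CPM (0.74), neither with whole counts in any library. The 12 h mean of NR1D1 was 22.7 ± 2.00 CPM, above all other times shown, and its 24 h libraries lay below those of 0 h (15.7 ± 1.27 CPM). BHLHE40, a repressor of the clock, fell from 106 ± 0.916 to 63.2 ± 3.86 CPM (-0.74, adjusted p = 4.3e-08).

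Of 30 genes of the G2 and M phases, 10 fell and 2 rose (median -0.13), while 18 had been higher at 6 h than at 0 h. Over all genes tested, 12.1% fell, 11.0% rose and 16.9% had been higher at 6 h. The number that fell was 5 with replicates 2 and 3 averaged or with library size alone, 6 with upper-quartile scaling or without the 6 h replicate 3, 17 with the length and GC correction and 16 with that correction and the replicate block. AURKB, a mitotic kinase, measured 132, 124 and 124 CPM at 6 h and 92.4, 84.8 and 83.4 CPM at 24 h (log2 fold change -0.54, adjusted p = 1.3e-05), and CDK1 and UBE2C fell by 0.36 and 0.44. Of 30 S phase genes, 5 fell and 1 rose (median -0.010), with 16 already lower at 6 h than at 0 h, where 13.2% of all genes were. The S phase genes that fell numbered 2 with replicates 2 and 3 averaged, 3 without the 6 h replicate 3 and 9 with the length and GC correction, and those that rose numbered 4 with that correction. CDKN1A, which encodes the cell cycle inhibitor p21, measured 219, 215 and 220 CPM at 6 h and 126, 123 and 118 CPM at 24 h (-0.83, SE 0.0567, adjusted p = 4.3e-09), back near its 0 h level of 112 ± 8.79 CPM. GADD45A, a growth arrest gene, fell by 0.71 without having been higher at 6 h by the test.

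Several of the genes that rose most had been low at 6 h. They were chosen by their rise from the same 6 h libraries, a choice that favours a low value at 6 h. PPFIBP2, a liprin that binds at cell contacts, was at 6.31 ± 1.33 CPM at 0 h, at 1.26, 1.26 and 1.35 CPM at 6 h and at 6.85, 6.07 and 6.27 CPM at 24 h (log2 fold change 2.30, SE 0.174, adjusted p = 1.7e-08), a faded response. SHROOM2, a regulator of the actin cytoskeleton, rose from 2.62 ± 0.168 to 9.46 ± 1.42 CPM (1.85), and NOX5, a calcium-dependent NADPH oxidase, from 4.64 ± 0.474 to 16.1 ± 0.339 CPM (1.79). PPL (periplakin), which links desmosomes to the cytoskeleton, measured 4.23, 6.17 and 5.07 CPM at 6 h and 14.9, 16.8 and 17.1 CPM at 24 h (1.66, adjusted p = 4.3e-08). PPL and PLEKHS1 (1.85) were reversed 2-fold responses, each having been lower at 6 h and higher at 24 h than at 0 h. For PPL the call of 24 h against 0 h lay near the threshold (0.32, adjusted p = 0.0462). Its 24 h libraries overlapped those of 0 h, which measured 11.6, 15.2 and 12.3 CPM. SLC2A12, a glucose transporter, LGALS12, a galectin, and DHRS3, a retinal reductase, rose by 1.68, 1.63 and 1.29 and were faded responses. LINC02009, MILR1 and METTL7A rose by 1.56, 1.50 and 1.48.

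A persisting fall was recorded for RPL17-C18orf32, a read-through of 2 neighbouring genes, at 16.9 ± 2.52 CPM at 0 h, 7.06 ± 2.21 CPM at 6 h and 7.82 ± 1.43 CPM at 24 h. Its counts were not whole in any library, since it shares reads with the genes it joins, and the value is uncertain. Transcripts of the mitochondrial genome did not pass the test between 6 h and 24 h (0 of 13 called, median log2 fold change -0.29), although 7 were lower at 6 h and 12 lower at 24 h than at 0 h. Without a filter on low counts 11 of the 13 were called lower at 24 h than at 6 h, and 1 was when only these groups were fitted.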

How the data were processed

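Per the labels' protocols, mRNA was sequenced from both ends with a strand-marking kit. The authors deposited expected counts per gene, from RSEM per the deposited table's name, and 10.8% of the values are not whole. cutadapt 1.18, STAR 2.7.0f and hg38 are named in the submitters' processing notes, and the annotation and strand setting are not given in the sources used here. Expected counts were rounded, and 58597 of 58870 entries matched GENCODE 29. Genes were kept by filterByExpr, scaled by TMM and fitted over all 17 libraries by robust quasi-likelihood, each time having its own mean (edgeR 4.0.16, R 4.3.3). Contrasts were called at a Benjamini-Hochberg adjusted p below 0.05 over 15365 genes. Tested on simulated counts for 24 h against 6 h (10 draws, 15107 to 15134 genes), the fit recovered 77.8% of 1.5-fold (65.7% to 86.6% by draw) and 96.4% of 2-fold changes, and 5.75% of its calls were false. The simulated libraries were independent, without the closeness of replicates 2 and 3 or the slope on length. Few genes were changed, and none of the lowest level. The shares recovered and false therefore do not carry over to the calls reported here.

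Deviations of same-numbered libraries at 6 h and 24 h correlated at 0.51, 0.27 and 0.22 (replicates 1, 2 and 3). Replicate 2 at 6 h with replicate 3 at 24 h gave 0.17, and the converse 0.20, so a pairing of these was not clear. The fit above did not use the replicate numbers, which entered only as a block among the alternatives. The members of the 30 gene lists and the lists themselves were chosen with earlier results of these data known, and list counts are descriptions. Genes were named as the 12 highest and 12 lowest calls without overlap between times and an average log2 CPM of at least 2, the 5 largest per class at the same level, NFKB2, and list members; some of these are not reported here. RefSeq promoters are of GRCh38.p14.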

Additional observations from a re-analysis of the deposited data

How the results depend on the processing

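Alternatives were RLE, upper-quartile and library-size scaling, other filters, DESeq2 1.42.0, limma-voom (limma 3.58.1), non-robust estimation and only the groups compared. Others were unrounded counts, the replicate number as a block, replicates 2 and 3 averaged, and each library of 0, 6 and 24 h left out. Length and GC corrections with the block or the averaging were added after seeing the data. None changed the sign of a call among the 3561, and of the values for single genes 1 changed sign: RPL17-C18orf32, which was not called, ranged from -0.067 (without the 6 h replicate 3) to 0.41 with 1 library left out.

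With the replicate block, 1689 genes were higher and 1876 lower, effectors lower numbered 1, TRAIL and apoptosis genes higher 3, TGF-beta and YAP genes lower 5, S phase genes lower 4 and cholesterol genes lower 1. Among the genes named, PARP12 and FDPS lost their calls with the block and no other call changed. Averaging gave 963 higher, 948 lower, and of 131 responses of at least 2-fold 3 reversed, 37 faded, 9 partly faded, 0 grown and 26 persisting, with 0 lower effectors. Averaging with the length and GC correction gave 136 responses, 3 reversed, 26 persisting, 35 undecided, 1 lower effector and 2 higher NF-kB genes, and that correction alone or with the block gave 3 higher NF-kB genes. Library size alone gave 1147 lower genes, 2 grown, 63 late higher, 0 lower effectors and 4 higher NF-kB genes, and upper-quartile scaling 1 lower effector and 3 higher NF-kB genes. Without a filter there were 171 genes lower by at least 2-fold and 352 responses, 8 reversed, 9 grown and 100 persisting. DESeq2 gave 106 responses, 35 faded, 0 grown, 26 persisting, 23 undecided and 25 late higher, and the fit of only the groups compared 43 faded, 48 undecided and 0 lower effectors. The cause of these shifts was not tested.

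Leaving out each library in turn gave 1265 to 1537 higher and 1358 to 1693 lower genes, 146 to 259 responses of at least 2-fold, 2 to 6 reversed, 0 to 2 grown, 24 to 65 persisting and 39 to 105 undecided. It left 28 to 35 effectors higher and 0 to 2 lower. Differences under about 1.5-fold in genes with few counts are limited by depth.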

Other observations

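Of 25 genes of cholesterol synthesis and uptake, 7 rose and 2 fell between 6 h and 24 h (median log2 fold change 0.038). Over all genes tested, 11.0% rose and 12.1% fell. HSD17B7 and TM7SF2, enzymes of sterol synthesis, rose by 0.76 and 0.58, while FDPS fell by 0.15. The call of FDPS was lost under 11 of 21 alternatives, the replicate block among them, and that of TM7SF2 without the 24 h replicate 1. The number that fell ranged from 0, with library size alone, replicates 2 and 3 averaged or without the 24 h replicate 3, to 4, with the length and GC correction or without the 24 h replicate 1. Of 14 fatty acid genes, 4 rose and 3 fell, beside the same 11.0% and 12.1% of all genes. SREBF1, ACSS2 and LPIN1 rose by 0.32, 0.48 and 0.45, and FASN, ACLY and ELOVL5 fell by 0.33, 0.23 and 0.25. With replicates 2 and 3 averaged, 2 rose and 0 fell, so that all 3 falls and the rise of SREBF1 lost their calls. The number that fell was 0 with library size alone and 1 when any 1 of the 6 h replicates 2 and 3 and the 24 h replicate 1 was left out.

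Cytosolic ribosomal protein genes were seldom called between 6 h and 24 h, with 1 of 28 lower and 0 higher (median -0.13), but 27 were lower at 24 h than at 0 h. Without the 24 h replicate 1, 11 were lower at 24 h than at 6 h, and 6 were without a filter and 5 with the length and GC correction. Of 26 nuclear genes of oxidative phosphorylation, 5 rose and 0 fell (median 0.078), where 11.0% of all genes rose and 12.1% fell. UQCRC2 (0.28) and NDUFA4 (0.27) were among those that rose. The number that rose was 2 with replicates 2 and 3 averaged or the 24 h replicate 1 left out, and 3 with the 6 h replicate 2 left out. Of 16 oxidative stress and metallothionein genes, 2 fell, near the 12.1% of all genes that fell. They were the cystine transporter SLC7A11 (-0.46) and SRXN1 (-0.31). The call of SLC7A11 was lost with replicates 2 and 3 averaged, with library size alone and when any 1 of the 6 h replicates 2 and 3 and the 24 h replicate 1 was left out, and 4 fell with the length and GC correction.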
